A study of Homo sapiens with 6 samples.

Results

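The genes described here are the MAF family and 2 genes linked to MAF in multiple myeloma, a cancer of plasma cells. They comprise the large MAF transcription factor gene MAF, the small MAF genes MAFF, MAFG and MAFK, the integrin subunit gene ITGB7 and the chemokine receptor gene CCR1. All probe sets annotated to 1 of these symbols alone were taken, which gave 13 probe sets of 5 genes among the 19775 genes read by such probe sets. MAFK is not analysed here, because its symbol stood alone on none of them. The 13 probe sets are not 13 independent measurements, since 6 of them read MAF.

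RNA of MM1S, an established human myeloma cell line, was measured on 6 single-colour arrays, of which 3 carried RNA labelled hypoxia and 3 carried RNA labelled normoxia, to find transcripts that differ between these conditions. The treatment text names hypoxia for 24 h and stands on all 6 arrays, so the groups were taken from the condition label. Neither the oxygen level nor separate cultures for the arrays are given in the sources used here. The p-values set the difference between conditions against the variation among these samples alone. That variation may be technical, since the arrays may not come from independent cultures. Each probe set has 1 linear intensity per array, and array medians lay between 54.95 and 60.1. The arrays are from 1 cell line, so nothing below extends to other myeloma cells.

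MAF proteins are basic leucine zipper transcription factors that bind MAF recognition elements in DNA. Large MAF proteins carry an activation domain, whereas the small MAF proteins lack one and act as dimers with one another or with partners of the cap'n'collar group, such as NRF2. MM1S is known to carry a translocation that places MAF under control of the immunoglobulin heavy chain locus, and MAF-driven myelomas are known for high levels of the cyclin gene CCND2, of ITGB7, whose product joins alpha integrin subunits in adhesion to stroma, and of CCR1, a receptor for inflammatory chemokines.

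RefSeq promoter windows of GRCh38.p14, 250 bases before to 50 after each annotated start site, were matched by symbol for the 5 measured genes, with 2 windows for MAFF. The windows of MAF and MAFF are printed because these are the genes that rose. Capitals mark matches, on either strand, to TGACGTCA, TGCTGA and ACGTG. TGACGTCA is the core of the cyclic AMP response element (CRE) and also of one form of MAF recognition element. TGCTGA is the outer part of such a MAF element, and ACGTG is the core that hypoxia-inducible factors bind. These motifs were chosen after the windows had been seen.
MAF, chr16:79600688-79600987, minus strand: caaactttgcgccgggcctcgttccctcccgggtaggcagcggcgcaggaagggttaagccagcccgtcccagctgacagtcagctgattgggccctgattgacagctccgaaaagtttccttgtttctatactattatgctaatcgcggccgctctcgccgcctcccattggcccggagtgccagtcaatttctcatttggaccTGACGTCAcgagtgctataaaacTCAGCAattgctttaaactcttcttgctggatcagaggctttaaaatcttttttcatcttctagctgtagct
MAFF, chr22:38201744-38202043, plus strand: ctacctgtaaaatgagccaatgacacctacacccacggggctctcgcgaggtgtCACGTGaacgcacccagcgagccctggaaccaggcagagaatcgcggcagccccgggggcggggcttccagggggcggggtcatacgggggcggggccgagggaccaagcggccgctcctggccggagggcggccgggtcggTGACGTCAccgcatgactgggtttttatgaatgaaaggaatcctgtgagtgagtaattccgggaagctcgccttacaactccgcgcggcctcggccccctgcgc
MAFF, chr22:38202770-38203069, plus strand: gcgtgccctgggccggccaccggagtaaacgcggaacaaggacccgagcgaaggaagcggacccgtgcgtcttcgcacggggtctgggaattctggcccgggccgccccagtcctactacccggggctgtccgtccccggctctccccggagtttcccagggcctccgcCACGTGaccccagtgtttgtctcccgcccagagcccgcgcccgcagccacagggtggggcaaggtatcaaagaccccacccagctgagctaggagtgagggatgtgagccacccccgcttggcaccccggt

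TGACGTCA stood in the MAF window, with its first base 45 bases before the start site, and in the first MAFF window, 54 bases before it. It was present in 1.84% of 34796 promoter windows of 300 bases. TGCTGA, which appears as its reverse complement TCAGCA, stood in the MAF window 22 bases before the start site and in 17.3% of all windows. It lay apart from TGACGTCA there, and neither MAFF window held it, so no window held a whole MAF element of this form. ACGTG was not found in the MAF window. Both MAFF windows held CACGTG, which contains ACGTG once on each strand, so that its 2 matches overlap, as did the window of MAFG. ACGTG was found on either strand in 21.4% of all windows. The windows of ITGB7 and CCR1 held none of these motifs, nor did any of the windows hold TGAGTCA, the core of the other form of recognition element (4.96% of all windows). A match is a description of these letters, and none of the arrays measured binding.

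In hypoxia MAF and MAFF were higher, CCR1 was lower, and neither MAFG nor ITGB7 passed the test. Changes are differences of mean log2(intensity + 16), hypoxia minus normoxia, a scale on which dim probe sets show too small a change, and were tested with limma over all 54613 probe sets with Benjamini-Hochberg adjustment, the threshold being an adjusted p of 0.05. Of the 13 probe sets, 8 rose, 2 fell and 3 did not pass. Over all probe sets 15.5% rose and 15.2% fell. The median change was 0.65 for the 13 probe sets and 0.017 for all. In 12 of the 13 the arrays of the conditions did not overlap, against 42.5% of all probe sets. These counts and the median weigh MAF most, since 6 of the 13 probe sets read it. By the brightest probe set of each of the 5 genes, 2 rose and 1 fell. Over all genes by that reading, 15.6% rose and 19.1% fell.

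**Figure D1:**
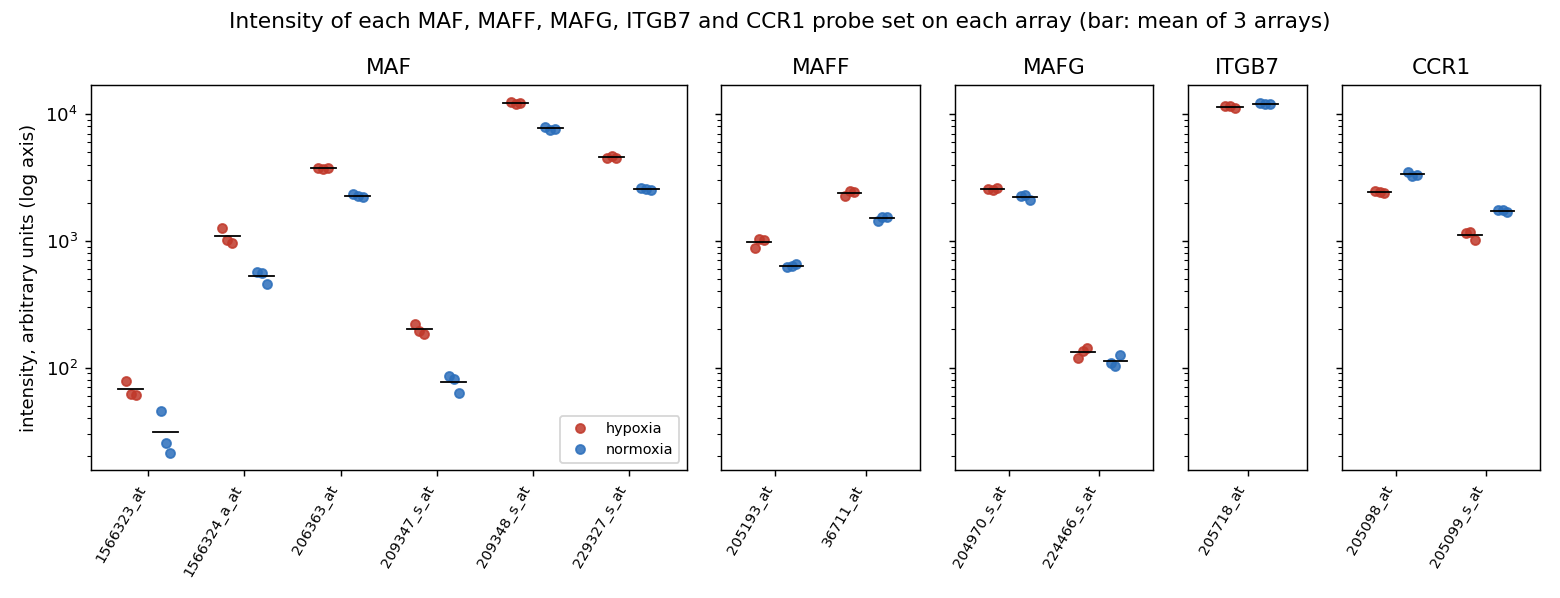
Intensity of each probe set on each array, in arbitrary units on a log axis, with hypoxia in red and normoxia in blue (3 arrays each) and a bar at each mean. All hypoxia points of MAF and MAFF lie above the normoxia points and all those of CCR1 lie below them, while the conditions overlap for 224466_s_at of MAFG.

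All 6 probe sets of MAF rose. The brightest, 209348_s_at, had intensities of 12365, 11999.8 and 12192 on the hypoxia arrays, against 7963, 7559 and 7630.0 on the normoxia arrays. Means were 12186 ± 183 in hypoxia and 7717 ± 216 in normoxia (SD, n = 3 each), a ratio of 1.58. The log2 change was 0.66 (95% confidence interval 0.50 to 0.82, limma adjusted p = 0.000666). The lowest hypoxia array thus lay well above the highest normoxia array for this probe set, one of the brightest on every array.

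The probe set 206363_at read 3758, 3721 and 3739.8 in hypoxia, against 2329.9, 2260.0 and 2206 in normoxia. Its log2 change was 0.72 (95% confidence interval 0.56 to 0.88, limma adjusted p = 0.000464). The hypoxia arrays differed from each other by less than the normoxia arrays did. For 229327_s_at the intensities were 4532, 4663 and 4518 in hypoxia, against 2624, 2556 and 2537 in normoxia. The change was 0.83 (limma adjusted p = 0.000276). The 3 brighter MAF probe sets therefore gave ratios of mean intensity of 1.58 to 1.78.

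The 3 dimmer MAF probe sets had wider intervals. 1566324_a_at read 1258, 1024 and 965 in hypoxia, against 563, 554 and 457 in normoxia, with a change of 1.02 (95% confidence interval 0.69 to 1.35, limma adjusted p = 0.00207). 209347_s_at read 222, 194 and 184 in hypoxia, against 85.1, 81.3 and 62.5 in normoxia, and its change of 1.23 (95% confidence interval 0.92 to 1.54, limma adjusted p = 0.000770) was exceeded by 2.09% of all probe sets. Its normoxia values lay just above the array medians. 1566323_at read 78.8, 62.3 and 60.9 in hypoxia, against 45.6, 25.5 and 21.3 in normoxia, where it lay below the median probe set of each array, and signal cannot be told from background there. Its change of 0.86 (limma adjusted p = 0.0220) was 0.48 with a pseudocount of 64 (adjusted p = 0.0120) and no longer passed when 1 array was left out in 5 of 6 cases. Ratios of mean intensity were 2.06 for 1566324_a_at and 2.62 for 209347_s_at, and none is given for 1566323_at. Why the probe sets differ in size was not tested.

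**Figure D2:**
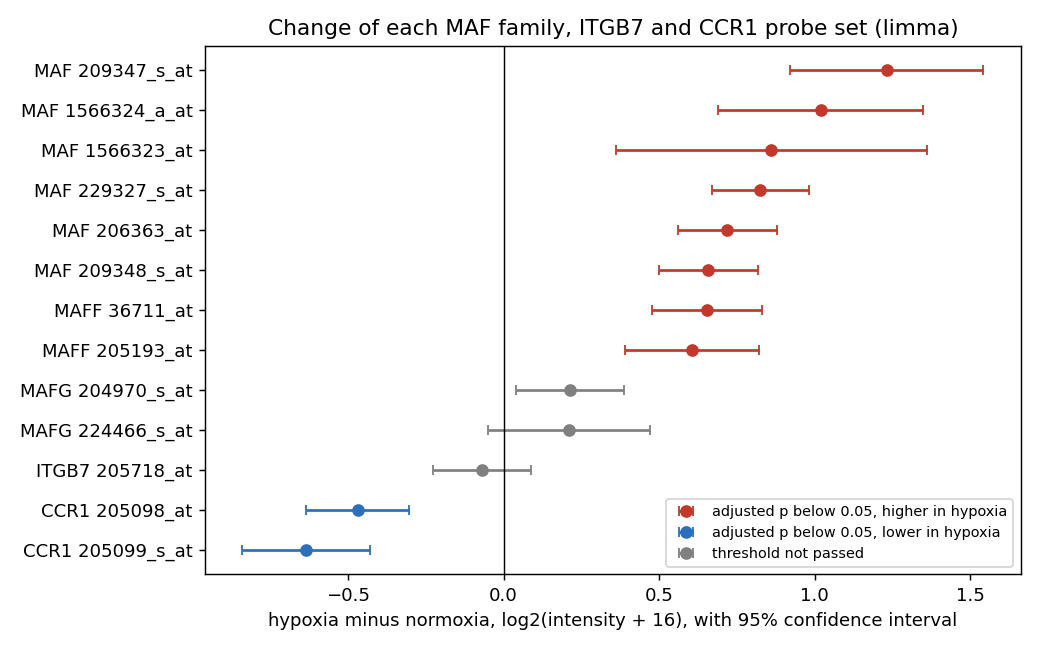
Change of each probe set, as the hypoxia mean minus the normoxia mean of log2(intensity + 16), with 95% confidence intervals from limma (3 arrays per condition). The 6 MAF and 2 MAFF probe sets lie to the right of 0, from 0.61 to 1.23, and the 2 CCR1 probe sets to the left, at -0.47 and -0.63.

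MAFF, a small MAF gene known as inducible by stress and cytokines, rose on both probe sets. 36711_at read 2268, 2452 and 2412 in hypoxia, against 1441, 1542 and 1532 in normoxia, with means of 2378 ± 96.6 in hypoxia and 1505 ± 55.9 in normoxia (SD, n = 3 each). The log2 change was 0.65 (95% confidence interval 0.48 to 0.83, limma adjusted p = 0.00101). 205193_at read 884, 1043 and 1019 in hypoxia, against 619, 636 and 660.0 in normoxia, with a change of 0.61 (limma adjusted p = 0.00308). The lowest hypoxia array of both MAFF probe sets was the one numbered 0, and it still lay above every normoxia array. On both probe sets the lowest normoxia array was also the one numbered 0.

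MAFG, a small MAF gene whose product is a partner of NRF2, did not pass. 204970_s_at read 2564, 2521 and 2630.2 in hypoxia, against 2274, 2284 and 2098 in normoxia. The conditions did not overlap, and the change was 0.21 (95% confidence interval 0.04 to 0.39, limma adjusted p = 0.0719). The call depends on the setting: it passed under 6 of 15 alternatives, with limma adjusted p-values over all 15 of 0.00671 to 0.234. 224466_s_at read 118, 136 and 142 in hypoxia, against 108, 102 and 126 in normoxia. Here the conditions overlapped, with a change of 0.21 (95% confidence interval -0.05 to 0.47, limma adjusted p = 0.211). At this number of arrays a difference of the size of the MAF change lies outside both MAFG intervals.

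ITGB7 was read by 1 very bright probe set, 205718_at, at 11633, 11631 and 11134 in hypoxia, against 12131, 11977 and 12004 in normoxia. The hypoxia arrays were all lower, by little. The change was -0.070 (95% confidence interval -0.23 to 0.087, limma adjusted p = 0.5), and ITGB7 passed under none of 15 alternatives (limma adjusted p 0.0994 to 0.713). On every array it was brighter than 99.7% of the probe sets. Among the 411 probe sets with a mean log2 value above 13, 13.9% passed in either direction and the 95th percentile of the absolute change was 0.384. The brightest MAF probe set, which also lies in that range, changed by more than this.

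CCR1 fell on both probe sets. 205098_at read 2469, 2416 and 2391 in hypoxia, against 3507, 3264 and 3317 in normoxia, with means of 2425 ± 40.0 in hypoxia and 3363 ± 128 in normoxia (SD, n = 3 each). The log2 change was -0.47 (95% confidence interval -0.63 to -0.30, limma adjusted p = 0.00299). 205099_s_at read 1160.5, 1169 and 1007 in hypoxia, against 1748, 1743 and 1702 in normoxia, with a change of -0.63 (95% confidence interval -0.84 to -0.43, limma adjusted p = 0.00209). No array of one condition overlapped the other for either probe set. In a bulk sample, fewer cells with a transcript and less transcript per cell cannot be told apart.

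CCR1 is also a gene of monocytes and macrophages. All 5 measured markers of these cells (CD14, CSF1R, ITGAM, CD163 and MRC1) had intensities of at most 97.8, and none passed. Their summed intensity was 178.5 to 227.4 in hypoxia and 153.3 to 175.5 in normoxia, and 3 of the 5 lay below the array median on all arrays. CD14, the defining marker, was at 12.1 or less on all arrays. The part of such cells in the CCR1 result was not tested.

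Per array, the log2 value of the brightest MAF probe set was set against that of each other gene, so that the change of the pair could be compared. MAF changed by 0.45 more than MAFG, by 0.73 more than ITGB7 and by 1.13 more than CCR1, and in these 3 cases the hypoxia and normoxia arrays did not overlap (exact two-sided permutation test, p = 0.1 each, the smallest that 3 against 3 arrays allow). With MAFF the difference was 0.0040 (exact permutation test, p = 0.9). The 4 comparisons were chosen with the changes known, and adjusted over the 4 by Benjamini-Hochberg the exact permutation p was 0.133 for the first 3 and 0.9 for MAFF.

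Genes reported as targets or companions of MAF in myeloma went in both directions. Of 6 other such genes, 3 rose, 1 fell and 2 did not pass, with a median change of 0.25 by the brightest probe set of each gene. By that reading 15.6% of all genes rose and 19.1% fell, with a median change of -0.00016. NUAK1, an AMPK-related kinase, read 5432, 5138 and 5173 in hypoxia, against 3008, 2923 and 2756 in normoxia. The change was 0.85 (95% confidence interval 0.68 to 1.03, limma adjusted p = 0.000364), with every hypoxia array above every normoxia array. DEPTOR, an inhibitor of mTOR, read 5459.9, 4796 and 4842 in hypoxia, against 4019, 3561 and 3439 in normoxia. The change of 0.45 (limma adjusted p = 0.0141) lost its call without normoxia array 1 (0.43, limma adjusted p = 0.0541), without normoxia array 2 (0.41, adjusted p = 0.0530) and when its probe sets were averaged (0.45, adjusted p = 0.0555). NOTCH2, a Notch receptor, rose by 0.34 (limma adjusted p = 0.0108), but not when its 4 probe sets were averaged (0.14, limma adjusted p = 0.196). CX3CR1, the fractalkine receptor, fell by 0.54 (limma adjusted p = 0.00157), at 841, 805 and 780.4 in hypoxia, against 1171, 1183 and 1203 in normoxia. Its other probe set was at -0.09 and did not pass (limma adjusted p = 0.701), and the average of both was -0.32 (adjusted p = 0.0194).

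CCND2, the cyclin gene that marks this class of myeloma, was read by 4 probe sets. The brightest, 200953_s_at, was at 7312, 7158 and 7102 in hypoxia, against 8563, 8109.7 and 8085 in normoxia. The hypoxia arrays were lower without overlap, and the change of -0.20 did not pass (95% confidence interval -0.36 to -0.04, limma adjusted p = 0.0724), although it did under 6 of 15 alternatives. The other 3 probe sets fell, by 0.56 for 200951_s_at, by 0.87 for 200952_s_at and by 0.81 for 231259_s_at (limma adjusted p = 0.00424, 0.0271 and 0.0149). SPP1, which encodes osteopontin, read 10.7 to 18.6 on its brightest probe set, below the median of each array. The arrays measured RNA alone, and neither MAF protein nor its binding.

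**Figure D3:**
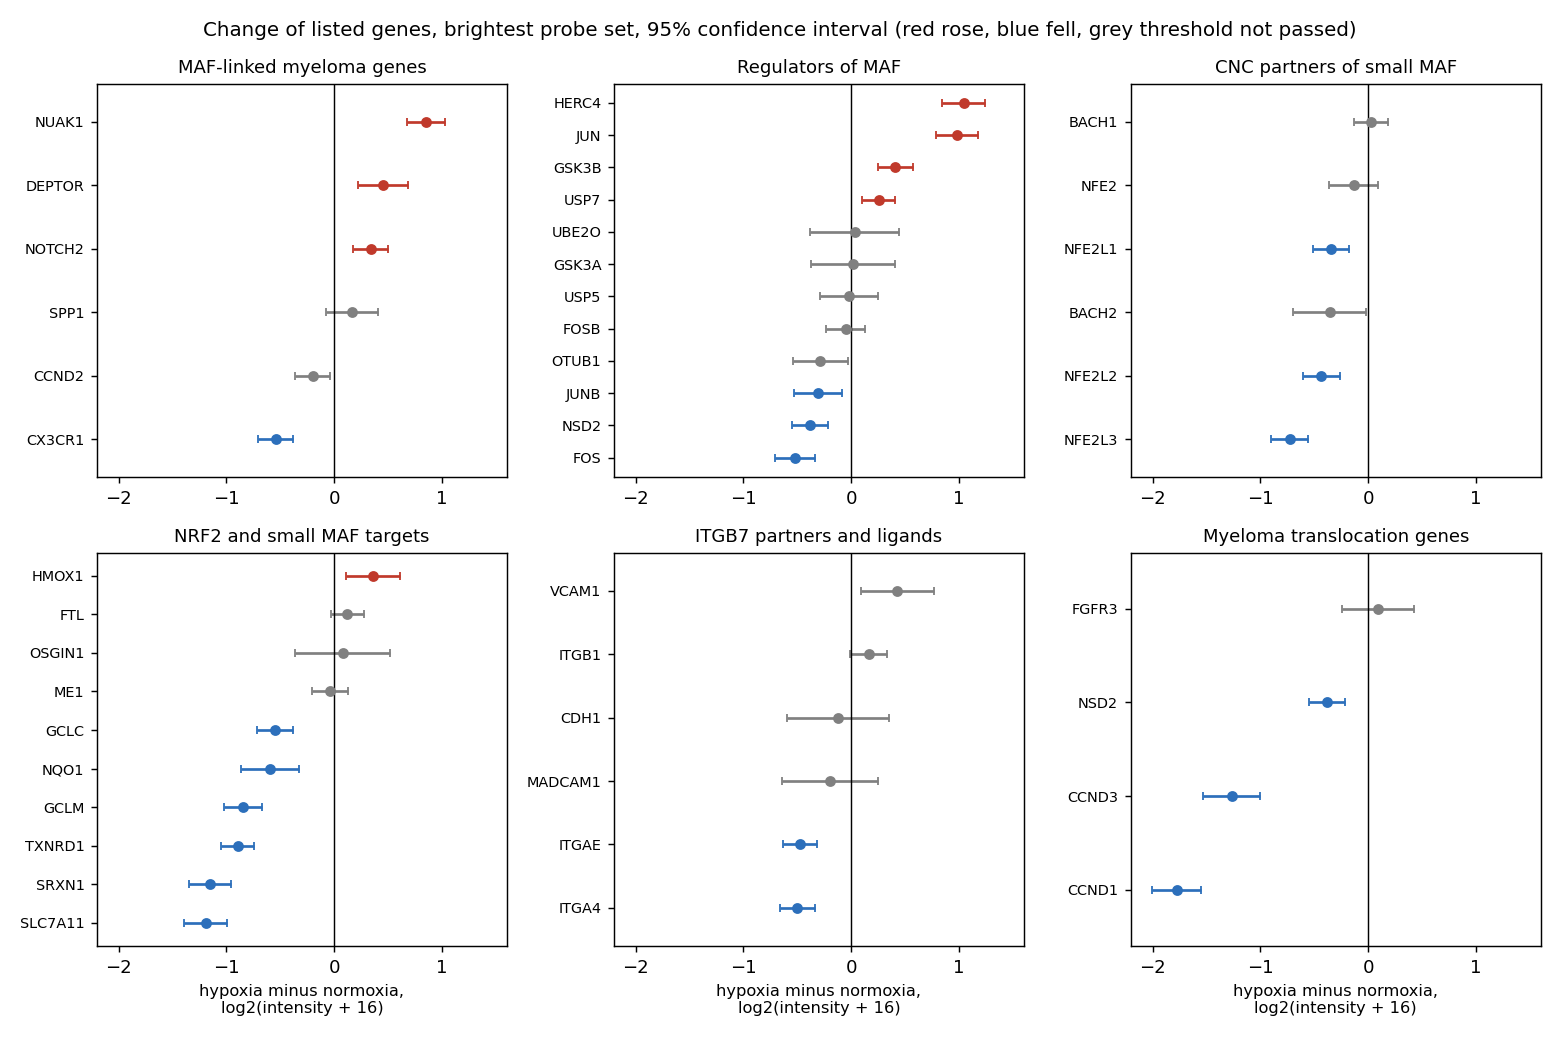
Change by the brightest probe set of the genes listed as MAF-linked, regulators of MAF, partners of small MAF, NRF2 targets, ITGB7 partners and ligands, and translocation genes, as the hypoxia mean minus the normoxia mean of log2(intensity + 16), with 95% confidence intervals (3 arrays per condition). Among these, HERC4, JUN and NUAK1 lie furthest to the right, at 1.04, 0.98 and 0.85, and CCND1 furthest to the left, at -1.78.

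Genes that act on MAF transcription or on the stability of its protein also split. Of 12 measured, 4 rose, 3 fell and 5 did not pass, with a median change of -0.00027. Over all genes, by the brightest probe set, 15.6% rose and 19.1% fell. HERC4, a ubiquitin ligase reported to act on MAF, read 1339, 1333 and 1223 in hypoxia, against 588, 667 and 611 in normoxia, a change of 1.04 (limma adjusted p = 0.000293). 4 of its 5 other probe sets also rose, of which 208054_at lay below the median of each array and 233509_at below that of 5 arrays. JUN, an AP-1 subunit, rose on all 4 probe sets, with 725, 724 and 743 on the brightest in hypoxia, against 337, 391 and 359 in normoxia (change 0.98, limma adjusted p = 0.000309). GSK3B, a kinase that phosphorylates MAF proteins, rose by 0.41 on its brightest probe set and by 1.03 on another, but fell by 0.99 and 0.77 on 2 further ones, so its direction depends on the probe set. USP7, a deubiquitinase, was at 0.26 on its brightest probe set (limma adjusted p = 0.0245, lost under 7 of 15 alternatives), and another of its 4 probe sets fell by 0.63. Of those that fell, NSD2, the histone methyltransferase gene linked to MAF induction in another class of myeloma, was at -0.38 (limma adjusted p = 0.00778). Of its 6 probe sets, 1 other also fell, and the rest were lower in hypoxia without passing. FOS was at -0.52 (limma adjusted p = 0.00301) and JUNB at -0.31 (limma adjusted p = 0.0472, lost under 7 of 15 alternatives). FOS read at most 12.7 on any array, where signal cannot be told from background, and its change was -1.56 with a pseudocount of 1 and -0.17 with one of 64. WWOX, the gene in which MAF breakpoints of myeloma lie, was read by 5 probe sets, none of which passed. The brightest read 109, 122 and 160 in hypoxia, against 93.3, 117 and 150.4 in normoxia, and its conditions overlapped (change 0.11, limma adjusted p = 0.745). For 219077_s_at, below the median of 5 arrays, the conditions did not overlap (change 0.58, limma adjusted p = 0.0945).

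The dimer partners of the small MAF proteins were lower or did not pass. Of 6 partner genes, 3 fell, 0 rose and 3 did not pass, with a median change of -0.35. The shares of all genes by the same reading were 19.1% lower and 15.6% higher. NFE2L3 read 1342, 1323 and 1309.7 in hypoxia, against 2144, 2142 and 2333 in normoxia (change -0.73, limma adjusted p = 0.000608). NFE2L2, which encodes NRF2, read 2459, 2317 and 2293 in hypoxia, against 3304, 3146 and 3122 in normoxia (change -0.44, limma adjusted p = 0.00463). NFE2L1 fell by 0.35 (limma adjusted p = 0.0106). BACH1, a repressor that pairs with small MAF proteins, was at 1799, 1839.5 and 1770.4 in hypoxia, against 1794, 1749 and 1759.6 in normoxia, and did not pass. BACH2 was at -0.36 and did not pass in limma (adjusted p = 0.111), but passed with dim probe sets left out (0.0471) and with quantile normalization (0.0488). NFE2 read 20.7 or less on all arrays. MAFF thus rose while 3 partner transcripts fell.

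Genes known as targets of NRF2 with small MAF were mostly lower. Of 10 measured, 6 fell, 1 rose and 3 did not pass, with a median change of -0.57. Among all genes 19.1% fell and 15.6% rose by the brightest probe set. SLC7A11, the cystine transporter gene, read 1329.5, 1479.6 and 1451 in hypoxia, against 3083, 3429 and 3291 in normoxia (change -1.19, limma adjusted p = 0.000179). SRXN1 fell by 1.15, the thioredoxin reductase gene TXNRD1 by 0.90 and GCLM, a subunit of glutathione synthesis, by 0.85. With its probe sets averaged, TXNRD1 fell by 0.32 (limma adjusted p = 0.0229). GCLC fell on its brightest probe set and on 202922_at. Its dim probe set 1555330_at, below the median of each array, rose by 0.32 (limma adjusted p = 0.0143). ME1 did not pass on its brightest probe set, but 204058_at was at -0.53 and passed (limma adjusted p = 0.00158). HMOX1, which encodes heme oxygenase, read 405, 359 and 328 in hypoxia, against 290.4, 257 and 289 in normoxia. Its change of 0.36 passed narrowly (limma adjusted p = 0.0406) and was lost under 8 of 15 alternatives.

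The alpha subunits that pair with the ITGB7 product both fell, as did 19.1% of all genes by the brightest probe set. ITGA4, whose product with ITGB7 binds MADCAM1, read 2375, 2441 and 2320.0 in hypoxia, against 3419, 3426 and 3256 in normoxia (change -0.50, limma adjusted p = 0.00221). Of its 4 probe sets 3 fell, and 205885_s_at was at 0.31 and did not pass. ITGAE, whose product with ITGB7 binds E-cadherin, read 2809, 2877 and 2948 in hypoxia, against 4005, 3935 and 4094 in normoxia (change -0.48, limma adjusted p = 0.00239). The other 4 genes listed as partners or ligands did not pass. Among them ITGB1, the alternative partner of ITGA4, was at 0.16 (limma adjusted p = 0.146), and the ligand genes MADCAM1, VCAM1 and CDH1 read at most 94.1. Of the 6 CCR1 ligands listed, 3 were measured, and the symbols of CCL3, CCL14 and CCL15 stood alone on no probe set. CCL5 was at 1571, 1402 and 1389.9 in hypoxia, against 1569, 1402 and 1495 in normoxia, and the arrays overlapped. CCL7 and CCL23 were dim and did not pass. CCR2, a related receptor, read 40.0 or less.

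Genes activated by other myeloma translocations were counted as a list. Of 4 measured, 3 fell and 1 did not pass, where 19.1% of all genes fell by the brightest probe set. CCND1 read 214, 172 and 184 in hypoxia, against 693, 674 and 692 in normoxia (change -1.78, limma adjusted p = 9.28e-05), and CCND3 read 357, 295 and 292 in hypoxia, against 837, 713 and 785 in normoxia (change -1.27, limma adjusted p = 0.000399, and -0.74 with its probe sets averaged). NSD2 is given above, and FGFR3 was at 0.093 and did not pass. NRL, the other large MAF gene measured, read at most 43.6 on its brightest probe set.

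The genes most like each measured gene over the 6 arrays were found by Pearson correlation of log2 values among 11569 others of mean intensity of at least 64. For MAF these were FAM13A, BTBD3 and CYSTM1, at r of 0.99997, 0.99986 and 0.99985. Since the arrays fall into 2 tight conditions, 766 genes had an r of at least 0.99 with MAF. For MAFF they were IMPDH2, IGBP1 and LINC02035, at 0.99990 or less, and 434 genes reached 0.99. For CCR1 they were RBM25, NIP7 and BAG5, with 707 genes at 0.99 or more. MAFG had RALY-AS1, PKHD1 and ZBTB17 (0.98713 at most), and ITGB7 had B3GAT3, KIF22 and FOXRED2 (0.99108 at most). These values describe likeness over 6 arrays of 1 experiment and carry no p.

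The labels were checked against marker genes. All 8 genes induced by hypoxia-inducible factors on the checking list rose in the arrays labelled hypoxia, PFKFB4 by 4.05. The 8 plasma cell markers read 191 to 11808 by their brightest probe sets. By these, SDC1, CD38, SLAMF7 and MZB1 fell and the other 4 did not pass, where 19.1% of all genes fell. Of the dimmer probe sets of those 4, 217192_s_at of PRDM1 rose by 0.45 and 216986_s_at of IRF4 by 0.65 (limma adjusted p = 0.0325 and 0.00917). Of other cell types, markers of T cells, monocytes, fibroblasts and epithelium read at most 175 by their brightest probe sets, B cell markers at most 319, and HBB, an erythroid gene, 1102 to 1898 with lower values in hypoxia. Of these markers, the B cell gene PAX5 rose by 1.65 and MS4A1 fell by 1.67 (limma adjusted p = 7.37e-05 and 0.000132), the epithelial gene EPCAM rose by 1.03 (0.00131) and the T cell gene CD3D by 0.38 (0.0485). On the hypoxia array numbered 2, 2 dimmer COL1A1 probe sets stood at 265 and 179.6, against at most 25.7 on the other 5 arrays, and 1 COL1A2 probe set at 140.2, against at most 31.7. Leaving that array out changed no call of the 13 probe sets other than that of 1566323_at of MAF (0.92, limma adjusted p = 0.0521).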

How the data were processed

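The 6 arrays (3 hypoxia, 3 normoxia) carried RNA of MM1S cells. The deposited table gives the authors' linear intensity values for 54613 probe sets; background correction, probe summary and scaling are not given in the sources used here, and no detection calls were used. Values of exactly 1 made up 2.44% to 2.58% of an array. Any 2 arrays shared 1.07% to 1.23% of their values, so each counted as 1 sample.

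Gene names came from the platform annotation: 41091 probe sets carried 1 symbol, 1801 several and 11721 none here. For 41037 of the single-symbol probe sets the Entrez identifier was found in RefSeq and gave the current symbol. The difference of log2(intensity + 16) was fitted over all probe sets with limma 3.58.1 (lmFit, eBayes; R 4.3.3), two-sided, without covariates, with Benjamini-Hochberg adjustment. The procedure was tested on simulated data. Listed genes were read by their brightest single-symbol probe set, and up to 4 per list with the smallest adjusted p were named, with others where a sentence turns on them. The genes and lists were chosen with earlier results of these data known. Alternatives covered pseudocount, dim probe sets, scaling, variance trend, replicate block, single arrays left out and 1 value per gene.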

Additional observations from a re-analysis of the deposited data

How the results depend on the processing

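Over the alternatives run, 9 to 11 of the 13 probe sets passed, 7 to 9 of them upward and 2 downward. Both CCR1 probe sets fell, and 5 MAF and both MAFF probe sets rose, under each alternative. With single arrays left out, 7 to 8 passed upward and 2 downward, and 13736 to 16112 of all probe sets passed, against 16770 with all arrays. Replicate numbers matched the arrays only in part. Deviations of same-numbered arrays correlated at 0.214 for number 0, 0.00824 for number 1 and 0.192 for number 2. Differently numbered arrays correlated at -0.23 to 0.0928, the highest being hypoxia array 1 with normoxia array 2. The main fit had no block for the replicate number. With the replicate number as a block, 10 of the 13 probe sets and 16531 in all passed. Listed genes whose direction turned were GSK3B (-0.0487), USP7 (-0.212), ITGB1 (-0.0162), FGFR3 (-0.0165) and NRL (0.127) when the probe sets of a gene were averaged, BACH1 (-0.0372) with median centring, and CCL5 (0.0423) with quantile normalization. With 1 array left out, values ranged from -0.0903 to 0.00395 for CCL5, from -0.0386 to 0.264 for WWOX, from -0.0276 to 0.173 for FGFR3 and from -0.215 to 0.077 for NRL. None of these turned values passed, and the cause was not tested. The number of arrays limits the precision, and signal below the array medians cannot be told from background.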
